A study of Homo sapiens with 6 samples.

Results

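The genes described here are 10 regulators and markers of the epithelial-mesenchymal transition: CDH1, EPCAM, ESRP1, CDH2, VIM, ZEB1, ZEB2, SNAI1, SNAI2 and TWIST1. They were chosen by name, and each matched 1 of the 51698 gene entries in the deposited tables. RNA had been sequenced from 6 established lines of human prostate cancer, each as a single library. The castration-sensitive lines were LNCaP and LAPC4, both grown in RPMI with 10% serum, and VCaP, grown in DMEM with 10% serum. Their castration-resistant counterparts, LNCaP-abl, VCaP-CR and also LAPC4-CR, were all grown in RPMI with 10% charcoal-stripped serum, from which steroids are depleted, and B27 supplement. The medium thus changed together with the state in every pair, and the effects of line and medium cannot be told apart. The labels name no further treatment, no passage and no clone. Total counts ran from 8661337 in LNCaP to 22433655 in LAPC4-CR, with more counts in the resistant than in the sensitive library of every pair.

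In epithelial sheets, cells are held together by E-cadherin, the product of CDH1, and during the transition to a mesenchymal state this contact is lost. Transcription factors of the ZEB, SNAI and TWIST families drive the switch by repressing CDH1 and other epithelial genes through E-box elements. N-cadherin, from CDH2, and the intermediate filament vimentin, from VIM, mark the mesenchymal state. The microRNAs of the miR-200 family target the transcripts of ZEB1 and ZEB2, and the ZEB factors in turn repress the miR-200 genes. In prostate cancer the program has been studied in connection with invasion and with androgen withdrawal.

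Levels are given as scaled FPKM, the deposited FPKM (counts scaled for gene length and library total) divided by 1 factor per library between 0.847 and 1.11. Since FPKM is per length, levels of different genes can be set side by side. All 6 libraries had the same arrangement: the 3 epithelial genes lay between 11.5 and 116, while VIM, ZEB1, ZEB2, SNAI1 and SNAI2 never exceeded 1.42. CDH2 and TWIST1 were the genes that stood above that range in some libraries. FPKM of CDH1 exceeded that of CDH2 by 21.0 times in LAPC4 (95% interval 18.3 to 24.3) and by 36.4 times in LAPC4-CR (32.9 to 40.3). The ratio was 67.8 in VCaP, 159.5 in VCaP-CR, 151 in LNCaP and 619 in LNCaP-abl (346 to 1241). These exact intervals, like the Poisson and binomial intervals that follow, cover counting error only.

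**Figure D1:**
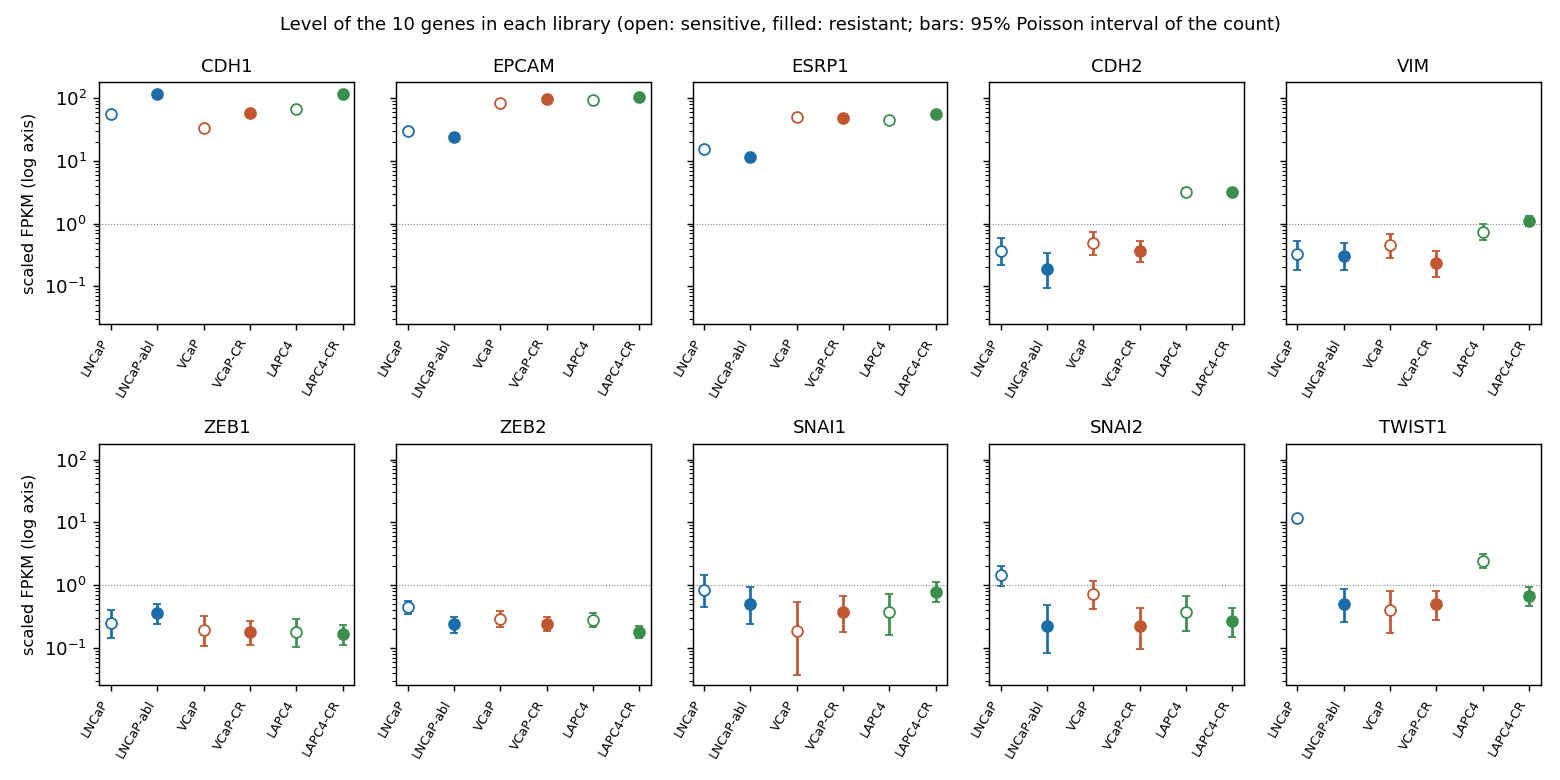
Scaled FPKM on a log axis for each of the 10 genes in the 6 libraries, with open points for sensitive and filled points for resistant lines and bars for the 95% Poisson interval of the count. CDH1, EPCAM and ESRP1 lie above 11 in every library, CDH2 lies near 3.2 in the 2 LAPC4 libraries and below 0.5 elsewhere, and TWIST1 is highest in LNCaP at 11.5.

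The libraries were set against markers of prostate epithelium and of other cell types. KRT8 and KRT18, the keratins of simple epithelium, were between 13.4 and 93.3 in all 6 libraries, and FOXA1 between 67.7 and 136.5. KLK3 and HOXB13 were also measured in all 6, with KLK3 down to 0.649 in LNCaP-abl and HOXB13 down to 1.60 in LAPC4-CR. Of 9 markers of stroma, endothelium and leukocytes found in the tables, 8 lay between 0.0344 and 1.99 in every library, and 0 of 9 were at a count of 0. The exception was LUM, which encodes the matrix proteoglycan lumican: it stood at 3.94 in VCaP and 50.2 in VCaP-CR. The summed level of the 9 markers was 52.8 in VCaP-CR and between 2.89 and 6.66 in the other 5 libraries. Its part in the VCaP-CR values below was not tested.

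CDH1 (ENSG00000039068, chromosome 16, 67328629 to 67426945) was higher in the resistant library of all 3 pairs. LNCaP and LNCaP-abl had 56.1 and 116, VCaP and VCaP-CR had 33.6 and 58.2, and LAPC4 and LAPC4-CR had 68.1 and 116. Since the lines start from different levels, the sensitive and resistant groups overlap, with LAPC4 above VCaP-CR. The ratio within a pair was 2.07 (95% interval 1.98 to 2.17) for LNCaP, 1.73 (1.64 to 1.84) for VCaP and 1.70 (1.65 to 1.76) for LAPC4, from 1622 to 14253 counts per library. Coordinates are as deposited, but with starts moved from 0-based to 1-based counting, and the submitters' processing notes name the build hg18.

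EPCAM and ESRP1 did not follow CDH1. EPCAM (ENSG00000119888, chromosome 2, 47425801 to 47468244) encodes an adhesion molecule of epithelial cell membranes. LNCaP and LNCaP-abl had 29.9 and 24.1, VCaP and VCaP-CR 84.7 and 98.4, and LAPC4 and LAPC4-CR 94.3 and 105. Both LNCaP libraries were thus below the other 4, and the ratios within pairs were 0.806, 1.16 and 1.11. The EPCAM locus also holds an entry of the 7SK family with 385 to 942 counts. Whether counting used strand is not given in the sources used here, so reads of overlapping entries cannot be assigned with certainty.

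ESRP1 (ENSG00000104413, chromosome 8, 95722478 to 95788870) encodes a splicing factor that maintains epithelial isoforms of its target transcripts. LNCaP and LNCaP-abl had 15.4 and 11.5, VCaP and VCaP-CR 49.7 and 48.4, and LAPC4 and LAPC4-CR 44.8 and 56.4. The order of libraries thus had the 2 LNCaP libraries lowest, as for EPCAM. The ratio within the pair was 0.748 (95% interval 0.672 to 0.833) for LNCaP, 0.974 (0.925 to 1.03) for VCaP and 1.26 (1.20 to 1.31) for LAPC4.

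Among the repressors, TWIST1 showed the widest differences. TWIST1 (ENSG00000122691, chromosome 7, 19027139 to 19123820) encodes a basic helix-loop-helix factor of mesodermal development. Its level was 11.5 in LNCaP from 217 counts and 0.499 in LNCaP-abl from 12 counts (95% Poisson interval 6.20 to 21.0). VCaP and VCaP-CR had 0.402 and 0.491, from 8 and 16 counts. In LAPC4 it was 2.40 from 63 counts and in LAPC4-CR 0.672 from 34. TWIST1 was therefore 23.1 times lower in LNCaP-abl than in LNCaP (95% interval 12.95 to 45.4) and 3.57 times lower in LAPC4-CR than in LAPC4 (2.32 to 5.59), whereas in the VCaP pair the interval of the ratio ran from 0.492 to 3.29. The deposited TWIST1 entry spans 96682 bases although its gene length is 2033, and the transcript AC003986.6, which overlaps it, had 1 to 11 counts.

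SNAI2 (ENSG00000019549, chromosome 8, 49992802 to 49996852), which encodes the zinc finger repressor Slug, rested on 6 to 30 counts. LNCaP and LNCaP-abl had 1.42 and 0.222, VCaP and VCaP-CR 0.717 and 0.219, and LAPC4 and LAPC4-CR 0.373 and 0.264. The resistant libraries, at 0.219 to 0.264, were all below the sensitive ones. The level in LNCaP was 6.39 times that in LNCaP-abl (95% interval 2.62 to 18.8) and the level in VCaP 3.28 times that in VCaP-CR (1.32 to 8.85), while for LAPC4 the interval, 0.587 to 3.29, included 1.

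SNAI1 (ENSG00000124216, chromosome 20, 48032943 to 48038830), which encodes Snail, had 3 to 33 counts and lay between 0.182 in VCaP and 0.833 in LNCaP. Its ratios of resistant to sensitive were 0.602, 2.03 and 2.14, and all 3 intervals included 1, so no difference was detectable at this depth. ZEB1 (ENSG00000148516, chromosome 10, 31647753 to 31861605) was between 0.164 and 0.356 from 14 to 31 counts, and its 3 intervals included 1 as well. ZEB2 (ENSG00000169554, chromosome 2, 144837533 to 144998617) was between 0.179 and 0.442 from 48 to 76 counts. Its resistant libraries, at 0.179 to 0.240, were all below the sensitive ones, at 0.276 to 0.442. The ZEB2 ratio was 0.537 (0.364 to 0.786) for LNCaP, 0.839 (0.569 to 1.24) for VCaP and 0.647 (0.456 to 0.921) for LAPC4. Among protein-coding genes, neither ZEB gene exceeded a percentile of 32.8 in any library, the value of ZEB1 in LNCaP-abl. The antisense genes ZEB1-AS1 and ZEB2-AS1 overlap these loci and had 2 to 11 and 3 to 11 counts. The loci also hold the pseudogenes SPTLC1P1, within ZEB1, with 10 to 41 counts, and AC009951.1, within ZEB2, with 11 to 39.

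CDH2 (ENSG00000170558, chromosome 18, 23784928 to 24011408) had 11 to 29 counts in the LNCaP and VCaP lines, with levels of 0.371 and 0.188 for LNCaP and LNCaP-abl and of 0.496 and 0.365 for VCaP and VCaP-CR. In LAPC4 it stood at 3.24 from 207 counts and in LAPC4-CR at 3.19 from 393, with a ratio of 0.986 (95% interval 0.831 to 1.17). Both LAPC4 libraries were thus above the other 4. VIM (ENSG00000026025, chromosome 10, 17310264 to 17319598) was at 0.326 and 0.306 for LNCaP and LNCaP-abl, 0.453 and 0.239 for VCaP and VCaP-CR, and 0.749 and 1.10 for LAPC4 and LAPC4-CR, so the LAPC4 libraries were again the highest 2 of the 6. For VIM the ratio within the LAPC4 pair was 1.47 (1.05 to 2.09), and the intervals of the other pairs included 1.

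**Figure D2:**
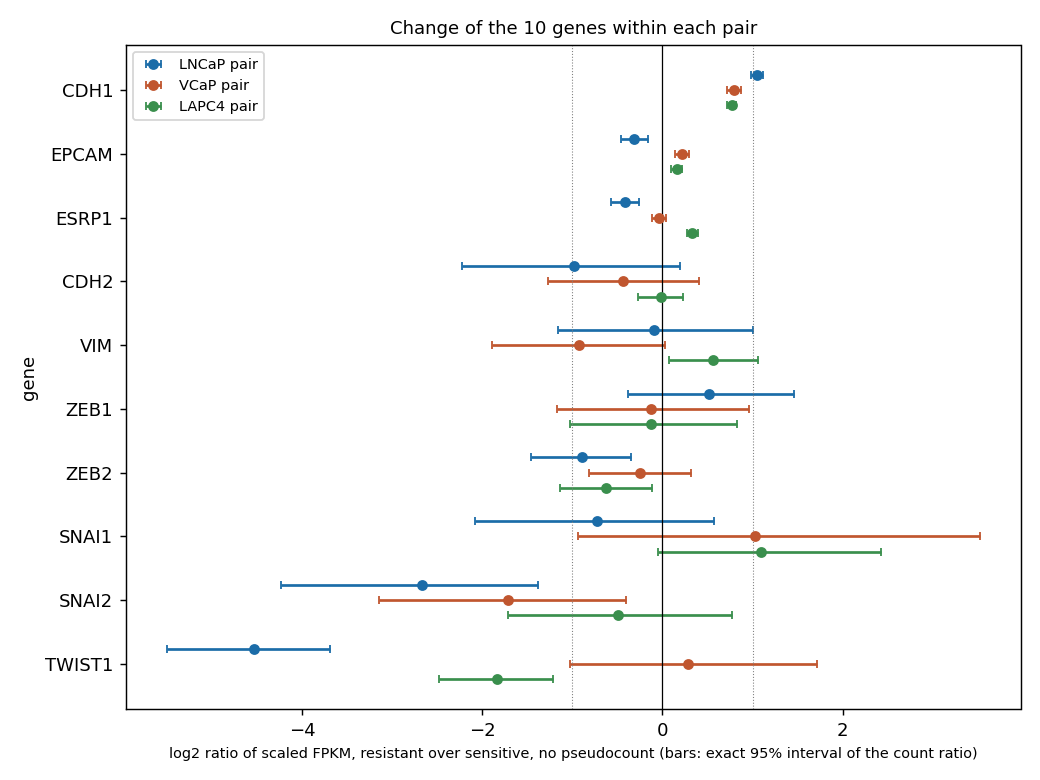
Log2 ratio of scaled FPKM, resistant over sensitive, for each gene and pair, with exact 95% intervals of the count ratio as bars and dotted lines at a 2-fold change. CDH1 lies to the right of 0 in all 3 pairs (ratios 1.70 to 2.07), TWIST1 lies far to the left in the LNCaP pair, and the intervals of SNAI1, ZEB1 and CDH2 cross 0 in every pair.

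With a single library on each side, no pair allows a test of its own, and a change of 2-fold or more in scaled FPKM + 1 was counted. In the LNCaP pair CDH1 rose and TWIST1 fell by this rule, with log2 changes of 1.04 and -3.06, beside 6.23% of 16231 tested genes that were higher and 6.19% that were lower. In the VCaP pair 0 of the 10 genes passed, beside 2.37% of tested genes higher and 2.03% lower. In the LAPC4 pair TWIST1 fell with a log2 change of -1.02, beside 5.22% of genes higher and 5.28% lower. The fall of TWIST1 in the LNCaP pair was reached by 47 of the tested genes, TWIST1 included. TWIST1 is among the tested genes only through its level in LNCaP, so this rank is no support for the fall. CDH1 passed 2-fold only just, and SNAI2 missed it in the LNCaP pair at -0.99. With scaling factors from protein-coding genes alone CDH1 was at 0.93 and SNAI2 at -1.01. Adding 1 to the level understates changes of genes as low as SNAI2, and a gene below 1 in the sensitive library cannot fall 2-fold by this rule. In VCaP this held for CDH2, VIM, ZEB1, ZEB2, SNAI1, SNAI2 and TWIST1, of which SNAI2 was highest at 0.717. The shares beside the counts are of tested genes, and VIM, ZEB1, ZEB2, SNAI1 and SNAI2 are not among these.

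Whether the 3 pairs changed in common was examined by edgeR's quasi-likelihood test of the counts, with the parental line as a block, over the 16231 genes whose scaled FPKM averaged 1 or more. CDH1, EPCAM, ESRP1, CDH2 and TWIST1 passed this filter, the last 2 through the lines where they are high; VIM, ZEB1, ZEB2, SNAI1 and SNAI2 did not. For CDH1 edgeR gave a log2 change of 0.88 (SE 0.23, unadjusted p 0.0071, adjusted p 0.593). On the log2(scaled FPKM + 1) scale its change was 0.86 ± 0.16 (SD, n = 3 pairs). Of the 16231 tested genes, 15.1% were higher in all 3 pairs and 16.7% lower in all 3, so a shared direction alone was common. A smallest change over the 3 pairs at least as high as that of CDH1 was found in 46, CDH1 included. For TWIST1 it was -2.12 by edgeR (SE 0.89, adjusted p 0.627). EPCAM, ESRP1 and CDH2 had log2 changes of 0.03, -0.03 and -0.41, with edgeR adjusted p of 0.984, 0.987 and 0.797. None of the 5 genes passed 5%, and neither did any other gene: edgeR called 0% higher and 0% lower, with 728 higher and 548 lower at an unadjusted p under 0.05. DESeq2 called 82 genes higher and 55 lower, with adjusted p of 0.124 for CDH1 and 0.243 for TWIST1. Limma called 0 in either direction, with 625 higher and 656 lower at an unadjusted p under 0.05. Over the 11 alternatives the adjusted p of CDH1 ran from 0.0945 to 1, and its log2 change from 0.80 to 1.05.

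SNAI2 and ZEB2, the repressors whose resistant libraries were all below the sensitive ones, could be tested only where the filter on low values was lifted. Without a filter edgeR put the log2 change of SNAI2 at -1.41 (SE 0.44, adjusted p 0.229). With edgeR's own filter the adjusted p of SNAI2 was 0.566. For ZEB2 the log2 change without a filter was -0.42 (SE 0.39). The adjusted p of SNAI1, ZEB1, ZEB2 and VIM was at least 0.703 in both of these fits.

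The 3 parental lineages were also compared, with the state as a covariate. In edgeR's F test over lineages, EPCAM (adjusted p 0.0238) and ESRP1 (0.0248) passed 5%, beside 12.7% of all tested genes. CDH1 (0.0965) and TWIST1 (0.254) did not, although CDH1 passed in DESeq2 (adjusted p 0.0499), beside 24.5% of genes. CDH2 had an adjusted p of 0.00857, but it entered the fit only through its level in the LAPC4 lineage, so this value is no support for a difference. In the edgeR fit with no filter on low values CDH2 had an adjusted p of 9.17e-06 and VIM one of 0.0325, beside 11.8% of 41666 genes called. With edgeR's own filter they were 0.00748 and 0.095. The 2 libraries of a lineage are a line and its derivative, not repeats of 1 culture, so the test sets lineages against the spread of the state change across lines.

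As a description, the fitted log2 level of CDH2 in the LAPC4 lineage exceeded that in the LNCaP lineage by 3.60 (SE 0.48) and that in the VCaP lineage by 2.93 (SE 0.45). EPCAM was higher than in the LNCaP lineage by 1.78 in the VCaP lineage (SE 0.31, edgeR adjusted p 0.0291) and by 1.91 in the LAPC4 lineage (SE 0.31, adjusted p 0.0334). ESRP1 was higher than in the LNCaP lineage by 1.88 in the VCaP lineage (SE 0.33, edgeR adjusted p 0.0285) and by 1.94 in the LAPC4 lineage (SE 0.33, adjusted p 0.0363). Between VCaP and LAPC4 the differences of EPCAM and ESRP1 were 0.13 (SE 0.30) and 0.05 (SE 0.32). These contrasts called 5.98% of genes for VCaP against LNCaP, 3.11% for LAPC4 against LNCaP and 12.6% for LAPC4 against VCaP. Without the LNCaP-abl library the F test's adjusted p was 0.0571 for EPCAM and 0.0596 for ESRP1, so neither passed. TWIST1 then had 0.0239, beside 17% of genes called, but in that fit the LNCaP lineage is the LNCaP library alone, through which TWIST1 passed the filter. The lone library is assumed to vary like the other lineages, and the value is not support for a lineage difference. In bulk RNA, fewer cells with a transcript and less transcript per cell cannot be told apart.

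The microRNA genes that oppose ZEB1 and ZEB2 were counted too, although outside the tests. The mature sequences of the family, from RefSeq (GRCh38.p14), are shown because their seeds, bases 2 to 8 in capitals, decide which transcripts they pair with and split the family into 2 groups. The seed AAUACUG belongs to the following 3.
hsa-miR-200b-3p: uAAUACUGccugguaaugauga
hsa-miR-200c-3p: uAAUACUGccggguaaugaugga
hsa-miR-429: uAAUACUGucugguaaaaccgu
The seed AACACUG belongs to the following 2.
hsa-miR-200a-3p: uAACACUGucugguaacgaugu
hsa-miR-141-3p: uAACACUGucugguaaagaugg
In the deposited coordinates MIR200B, MIR200A and MIR429 lie together on chromosome 1 between 1092347 and 1094330, and MIR200C and MIR141 on chromosome 12 between 6943123 and 6943615, so each cluster holds both seeds.

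Counts at the 3 genes on chromosome 1 summed to 55 and 34 for LNCaP and LNCaP-abl and to 18 and 43 for VCaP and VCaP-CR, but to 0 and 1 for LAPC4 and LAPC4-CR. MIR200B made up most of them, at 44, 21, 13 and 39 counts, and was at 0 in both LAPC4 libraries, where 3 counts, taken as the limit that a count of 0 allows, equal 0.242 CPM (counts scaled to the library total) in LAPC4 and 0.134 in LAPC4-CR. The upper ends of the 95% Poisson intervals there are 0.298 and 0.164 CPM. LNCaP had 5.08 CPM (95% Poisson interval 3.69 to 6.82) and LNCaP-abl 1.93 (1.19 to 2.95), while VCaP had 1.13 (0.599 to 1.93) and VCaP-CR 2.17 (1.54 to 2.97). MIR200C, on chromosome 12, was present in all 6 libraries, with 85 and 79 counts for LNCaP and LNCaP-abl, 61 and 212 for VCaP and VCaP-CR, and 115 and 121 for LAPC4 and LAPC4-CR. MIR200C thus stood at 9.28 CPM in LAPC4 (7.66 to 11.1) and 5.39 in LAPC4-CR (4.48 to 6.45), within the range of the other lines. MIR141 had 0 to 6 counts and MIR205 0 or 1. In the LAPC4 libraries ZEB1 was at 0.164 and 0.179 scaled FPKM, against 0.178 to 0.356 in the other 4, and ZEB2 at 0.179 and 0.276, against 0.237 to 0.442, so the ranges overlap. These are counts over short gene entries in a total RNA library; mature microRNA and longer transcripts over the entry cannot be told apart, and small RNA genes were not part of the tests.

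**Figure D3:**
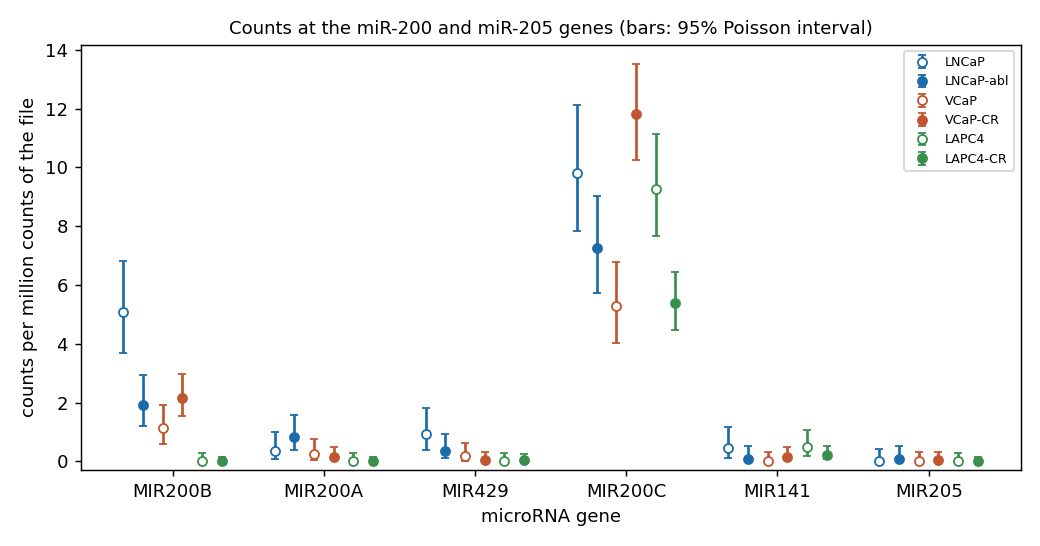
CPM (counts at the entry scaled to the library total) at 6 microRNA genes, with open points for sensitive and filled points for resistant lines and bars for 95% Poisson intervals. MIR200B is at 0 in both LAPC4 libraries and between 1.13 and 5.08 in the others, while MIR200C lies between 5.28 and 11.8 in all 6.

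Other genes of the program were taken from 6 lists with 86 genes, of which 60 passed the filter on low values. Across the 3 pairs 0 of the 60 passed 5% in edgeR. In the LNCaP pair 10 of the 60 were at least 2-fold higher and 5 lower (16.7% and 8.33%, beside 6.23% and 6.19% of all tested genes). In the VCaP pair these were 5 and 0 (8.33% and 0%, beside 2.37% and 2.03%), and in the LAPC4 pair 10 and 6 (16.7% and 10.0%, beside 5.22% and 5.28%). Among the 60, TNC, MUC1 and S100A4 passed the filter only through the resistant library where they are high. Their rises are in these counts but are no support for a change. With a pseudocount of 5 the LNCaP pair had 1 higher and 3 lower, the VCaP pair 3 higher, and the LAPC4 pair 9 higher and 2 lower. The shares of all tested genes were not counted with that pseudocount, so these counts cannot be set beside the shares above. The median change over all tested genes was between -0.02 and -0.01 in each pair. In the lineage F test 13 of the 60 passed (21.7%, beside 12.7% of all tested genes).

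Of 12 genes of cadherin-catenin and desmosome adhesion, 0 were 2-fold higher and 2 lower in the LNCaP pair, 3 higher in the VCaP pair, and 5 higher and 1 lower in the LAPC4 pair; the median changes were 0.06, 0.18 and 0.75. DSC2, a desmosomal cadherin, fell in LNCaP-abl from 65.95 to 0.597 scaled FPKM and rose in LAPC4-CR from 25.45 to 97.6. DSG2, its partner in the desmosome, fell from 80.4 to 7.17 in LNCaP-abl and rose to 95.6 from 32.4 in VCaP-CR and to 110 from 45.95 in LAPC4-CR. In LNCaP-abl, then, CDH1 rose while DSC2 and DSG2 fell. CDH3, which encodes P-cadherin, rose in VCaP-CR, to 5.61 from 0.796, and fell in LAPC4-CR, to 6.09 from 15.0. The catenins that anchor E-cadherin to actin did not pass 2-fold in the LNCaP and VCaP pairs: the log2 changes of CTNNB1 and CTNNA1 were 0.61 and -0.05 for LNCaP and 0.28 and 0.50 for VCaP. In LAPC4-CR CTNNA1 rose from 8.02 to 32.5 and CTNNB1 stood at 96.2 against 119. The extremes named by rule were PKP2 (0.94) in the LNCaP pair, PKP3 (-0.23) in the VCaP pair and PVRL4 (2.26) in the LAPC4 pair.

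Of 15 genes of tight junctions and polarity, 3 were higher and 1 lower in the LNCaP pair, 0 in either direction in the VCaP pair, and 0 higher and 1 lower in the LAPC4 pair. OCLN, which encodes the tight junction protein occludin, rose in LNCaP-abl from 6.05 to 27.7. CLDN3, a claudin, fell there from 14.9 to 0.731 and in LAPC4-CR from 37.8 to 8.275. The highest and lowest changes in the VCaP pair were those of LLGL2 (0.67) and CRB3 (-0.60). Among 10 genes of the epithelial surface 1 rose in each pair and 0 fell. RAB25, a small GTPase, rose in VCaP-CR (4.36 to 23.4) and MUC1, a membrane mucin, in LAPC4-CR (0.198 to 25.3, from 7 and 1719 counts). MUC1 was at most 0.523 in the other libraries and passed the filter only through LAPC4-CR. MUC1 stood lowest of this list in the LNCaP pair (0.04) and ST14 in the LAPC4 pair (-0.67).

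Of 11 tested transcription and splicing factors of epithelial cells, 5 rose and 0 fell in LNCaP-abl, 0 passed in VCaP-CR, and 2 rose and 2 fell in LAPC4-CR. The count in LNCaP-abl rests partly on GRHL1 and GRHL2, at log2 changes of 1.00 and 1.05: it was 4 with TMM factors, 3 with factors from protein-coding genes, where 1 gene was lower, and 0 with a pseudocount of 5. OVOL1, a repressor of mesenchymal genes, went from 0.533 to 4.15 in the LNCaP pair, and GRHL2, an activator of CDH1, from 16.2 to 34.6. RBM47, an RNA-binding protein, rose in LNCaP-abl, to 23.9 from 9.50, and in LAPC4-CR, to 18.6 from 2.57. ELF3 rose from 2.03 to 6.21 in LNCaP-abl and fell from 34.0 to 14.3 in LAPC4-CR, and KLF4 fell in LAPC4-CR from 6.83 to 1.83. The extremes that did not pass 2-fold were EHF in the LNCaP pair (-0.96), and EHF (0.55) and ESRP2 (-0.27), the paralog of ESRP1, in the VCaP pair.

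Most listed mesenchymal genes were low, but not all. Of 25 mesenchymal effectors, 18 did not pass the filter on low values, among them the collagens COL1A1, COL1A2 and COL3A1. These lay between 0.127 and 1.72 scaled FPKM in every library, a range that the filter partly sets. Of those that passed, CALD1 lay between 5.1 and 31.4 over the 6 libraries and ITGAV between 9.0 and 22.8. Of the 7 tested, 1 rose and 2 fell in the LNCaP pair, 0 passed in the VCaP pair, and 1 rose and 2 fell in the LAPC4 pair. FN1, which encodes fibronectin, fell from 5.16 to 1.95 in LNCaP-abl and from 5.22 to 0.346 in LAPC4-CR, and LOX, a collagen crosslinking oxidase, from 2.06 to 0.385 and from 3.07 to 0.710. TNC rose in LNCaP-abl from 0.211 to 5.03 and S100A4 in LAPC4-CR from 1.13 to 8.36. Both passed the filter only through the resistant library where they are high, so these counted rises are no support for a change. In the other libraries TNC was at most 0.312 and S100A4 at most 1.79. CALD1 (0.71) and ITGA5 (-0.04) were the extremes of the VCaP pair. In the LNCaP and LAPC4 pairs FN1 and LOX thus fell together with TWIST1.

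Of 12 other transcription factors linked to the transition, 5 passed the filter. SOX9 rose in VCaP-CR from 3.01 to 7.19 and GSC in LAPC4-CR from 0.185 to 4.28, from 3 and 134 counts. In the LNCaP pair 0 of the 5 passed 2-fold, with SOX4 at -0.86 and TCF3 at 0.31. TCF3 was lowest in the VCaP (-0.19) and LAPC4 (-0.56) pairs.

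**Figure D4:**
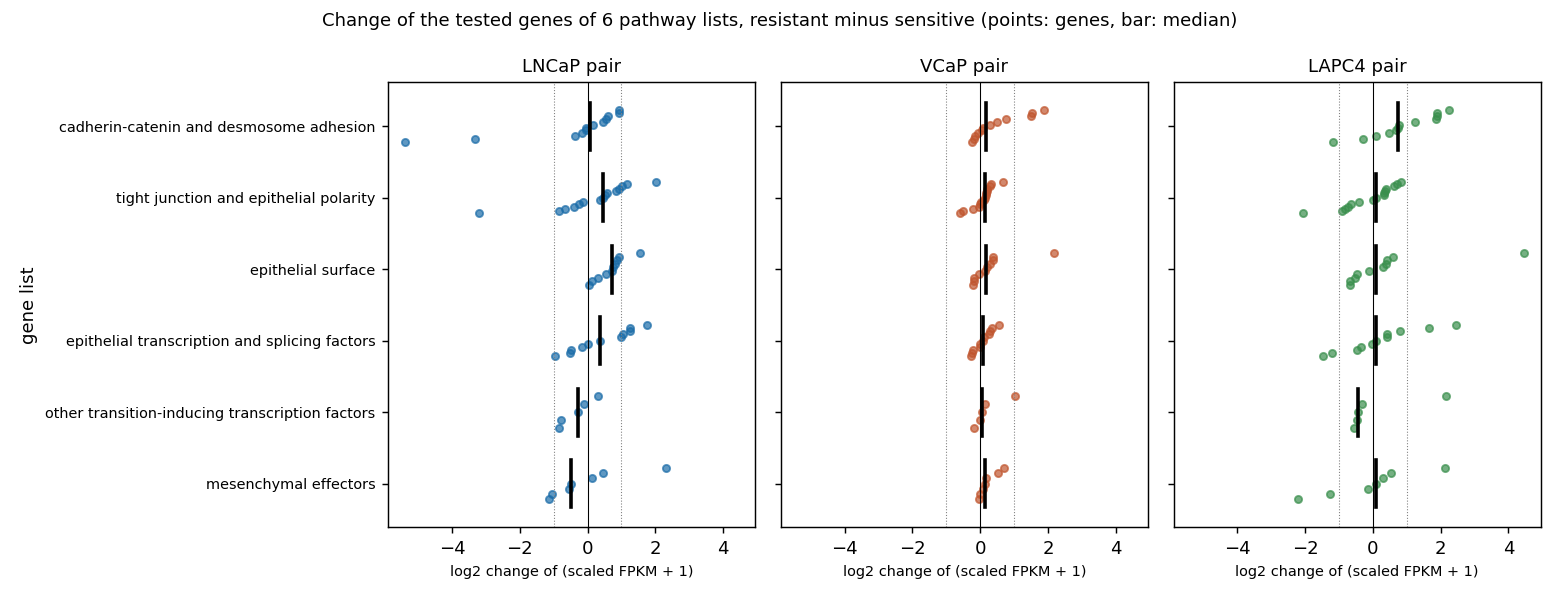
Change in log2(scaled FPKM + 1), resistant minus sensitive, of the tested genes of 6 lists in each pair, with points for genes, a black bar for the list's median and dotted lines at 2-fold. The adhesion list has its highest median, 0.75, in the LAPC4 pair, the DSC2 and DSG2 points lie far to the left in the LNCaP pair, and the VCaP points are the closest to 0.

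The genes most like a member across the 6 libraries were sought for members whose log2(scaled FPKM + 1) spanned at least 2, by the root mean square difference between profiles centred on their means. ESRP1 was the gene closest to EPCAM and EPCAM the closest to ESRP1 among 11341 tested protein-coding genes, with a difference of 0.10. SLC39A6, a zinc transporter, was next for both, at 0.21. C20orf177 came after it for EPCAM and CKS1B for ESRP1, at 0.21 and 0.22. TWIST1 was closest to MSN (0.37), COL12A1 (0.37) and FAM65B (0.44). MSN, which encodes the membrane-actin linker moesin, stood at 9.07 in LNCaP and at most 0.393 in the other 5 libraries, and COL12A1, a collagen chain, at 11.1 in LNCaP and at most 0.459 elsewhere. These likenesses describe 6 libraries from 3 lineages, and the TWIST1 match rests on its level in the LNCaP library.

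RefSeq promoter windows of 300 bases, from 250 before to 50 after a start (GRCh38.p14), were matched for ZEB1, ZEB2, VIM and CDH2, 11 windows in all. The E-box core CAGGTG, read on both strands and so also as CACCTG, occurred in 2 of the 11, both among the 7 windows of ZEB1. It was found in 20.6% of all windows of this length.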

How the data were processed

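Libraries were made with the SOLiD Total RNA-Seq kit, per the labels' protocols. The submitters' processing notes name HTSeq and hg18, while aligner, annotation and strand setting were not given in the sources used here. The deposited counts are whole numbers per gene, per the file headers. The deposited FPKM equals, within 1%, a value rebuilt from count, gene length and file total; the LAPC4-CR table gives no lengths, and those of the other 5 were used.

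Entries of small RNA classes (8763) were left out, entries sharing a symbol were summed (each of the 10 genes is 1 entry), and FPKM was divided by median-ratio factors over the 11600 genes that reached 1 FPKM in every library. The 16231 genes whose scaled FPKM averaged 1 or more were tested on counts with edgeR 4.0.16 (TMM factors, quasi-likelihood test, Benjamini-Hochberg adjustment over all tested genes, 5%; R 4.3.3). The parental line was a block. DESeq2 1.42.0 and limma 3.58.1 on log2(scaled FPKM + 1) were alternatives. The edgeR script was tested on simulated data. Poisson intervals and exact binomial intervals of count ratios are at 95% (SciPy 1.17.1).

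Groups came from the labels, and pairs from the line names, since the replicate numbers only follow accession order. Deviations from the group means correlated at 0.46, 0.73 and 0.59 within the LNCaP, VCaP and LAPC4 pairs. Nothing says that libraries came from repeated cultures, so p-values measure the spread between these libraries. Named genes beside the 10 are the highest and lowest of each list in each pair and the 3 closest profiles; others passing 2-fold were named after their values were seen, and some listed genes are not reported here. The 10 genes and the lists were chosen with earlier results of these data known.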

Additional observations from a re-analysis of the deposited data

Results flagged for a closer look

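Some genes had changes of opposite direction in different lines. The differences between pairs were not tested, as a pair holds a single library on each side. EPCAM was lower in LNCaP-abl and higher in VCaP-CR and LAPC4-CR, with intervals of the ratio that left out 1 in each pair; its LNCaP log2 change was below the VCaP one by a difference of -0.51 and below the LAPC4 one by -0.46. ESRP1 was likewise lower in the former and higher in the latter resistant line, LAPC4-CR, with LNCaP minus LAPC4 at -0.71.

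Among the listed genes, the desmosomal cadherins DSC2 and DSG2 fell at least 2-fold in LNCaP-abl but were up in LAPC4-CR, with differences between the pairs of -7.29 and -4.56, and DSG2 also rose in VCaP-CR (LNCaP minus VCaP -4.85). CDH3 rose in VCaP-CR and fell in LAPC4-CR (VCaP minus LAPC4 3.05). The epithelial transcription factor ELF3 rose in LNCaP-abl but was down in LAPC4-CR (LNCaP minus LAPC4 2.45).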

How the results depend on the processing

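Within pairs, 171 of 180 values of the 10 genes under alternatives kept their direction and their side of 2-fold. This share is partly fixed in advance. Using only the entry with the highest count repeats the main values, because each gene is 1 entry. A changed pseudocount cannot reverse a direction. The number of the 10 genes at least 2-fold higher in the LNCaP pair went from 1 to 0 with a pseudocount of 5 and with factors from protein-coding genes, where CDH1 was at 0.99 and 0.93. The number lower there went from 1 to 2, with SNAI2 added, with a pseudocount of 0.25, with deposited FPKM and with protein-coding factors. In the VCaP pair it went from 0 to 1 with a pseudocount of 0.25 (SNAI2, -1.045), and in the LAPC4 pair from 1 to 0 with a pseudocount of 5 (TWIST1, -0.38). Of the 60 tested list genes, a pseudocount of 5 left 1 higher and 3 lower in the LNCaP pair and 3 higher in the VCaP pair. In the LAPC4 pair it left 9 higher and 2 lower. The shares of all tested genes under these alternatives were not counted, so the counts have no background to be set beside.

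For the state, where edgeR called 0 genes in either direction, DESeq2 called 82 higher and 55 lower, and edgeR without a filter on low values 95 and 58. With 1 pair left out, the counts ran from 0 to 13 higher and from 1 to 20 lower, the most without the VCaP pair. The cause was not tested. None of the 10 genes that entered these fits was among their calls. A fit with no replicate block, which ignores the pairing, called 0 higher and 0 lower as well (161 lower at an unadjusted p under 0.05, beside 548 with the block), with edgeR log2 changes of 0.89 for CDH1 and -3.07 for TWIST1 and an adjusted p of 1 for both. In the lineage test 2065 genes became 3973 in DESeq2, 4900 without a filter, 1294 among protein-coding genes only (fewer genes tested), and 979 to 3589 with 1 library left out (979 without VCaP-CR, 1277 without VCaP, 3589 without LNCaP). Keeping small RNA genes, an alternative chosen after seeing the data, gave 0 and 0 across the pairs and 2168 between lineages. Depth limits ZEB1, SNAI1 and SNAI2 most, which had at most 33 counts in a library.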
